A study of Mus musculus with 6 samples.

Results

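Phosphofructokinase 1 sets the pace of glycolysis in activated T cells, and 8 genes that encode or control it were examined in RNA from stimulated mouse splenic T cells. They were taken by gene symbol from the 52550 genes of the count table. Pfkl, Pfkm and Pfkp encode the subunits of the enzyme. Pfkfb1, Pfkfb2, Pfkfb3 and Pfkfb4 encode the enzymes that make and break its activator, and Tigar encodes a phosphatase that removes it. The set was chosen by the measured difference of Pfkfb3 between the groups of these same samples, so the group values of all 8 genes are given as a description, without a test.

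The cells were wild-type C57BL CD3+ splenic T cells, isolated magnetically and stimulated for 24 h with antibodies to CD3 and CD28. In the group TCR alone nothing else was added (n = 3 samples). Per the labels, the group TCR+DMGV had the small molecule DMGV (dimethylguanidino valeric acid) at 100 ng/ml (n = 3 samples). All 6 samples therefore shared the stimulation, and unstimulated cells were not analysed here. The labels call the samples biological replicates without tying them to animals. The study's own text describes this experiment with LNY1 at the same dose and time. It equates LNY1, purified from fibroblast medium, with asymmetric and symmetric dimethylarginine, from which cells make DMGV. Which compound was given is therefore unsettled, and the name DMGV is used here as in the labels. The depth was 37758725 to 43718867 counts per sample. CPM are counts-per-million of the sample's summed counts over genes past edgeR's default filter, scaled by TMM normalization factors. The first principal component of log2 CPM held 32.2% of the variance. On it, TCR alone replicate 3 (42.1) and TCR+DMGV replicate 1 (42.9) stood apart from the other 4 samples (-34.9 to -10.5). The T cell markers Cd3d, Cd3e, Cd3g, Cd4, Cd8a and 11 others were all detected, and the neutrophil markers were listed at 0 in every sample.

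Phosphofructokinase 1 turns fructose-6-phosphate into fructose-1,6-bisphosphate, which commits the sugar to glycolysis. The enzyme works as a tetramer, and its subunits are named for liver (PFKL), muscle (PFKM) and platelets (PFKP). Its strongest activator is fructose-2,6-bisphosphate. Each PFKFB enzyme carries a kinase domain that makes this activator and a phosphatase domain that breaks it down. PFKFB3 has by far the most kinase activity of the family and responds to growth signals and low oxygen, while TIGAR, a p53 target, lowers the activator and leaves more sugar for the pentose phosphate pathway.

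Pfkfb3 (ENSMUSG00000026773.19) lies on the minus strand of mouse chromosome 2 (GRCm38 chr2:11471433-11554077). Of its 21 annotated transcripts, 2 begin at or near an upstream start and 14 at or near a downstream start 51.8 kb away, and the other 5 begin farther downstream. The promoter windows of both starts are shown because reads were assigned to transcripts from each of them. The windows span 300 bases, reach past the start, are written 5′ to 3′ on the gene's strand and come from RefSeq (GRCm38.p6). Capitals mark matches on either strand to ACGTG or GCGTG, the core letters of hypoxia response elements. ACGTG is also part of the E-box CACGTG.
Pfkfb3 upstream start, chr2:11553880-11554179: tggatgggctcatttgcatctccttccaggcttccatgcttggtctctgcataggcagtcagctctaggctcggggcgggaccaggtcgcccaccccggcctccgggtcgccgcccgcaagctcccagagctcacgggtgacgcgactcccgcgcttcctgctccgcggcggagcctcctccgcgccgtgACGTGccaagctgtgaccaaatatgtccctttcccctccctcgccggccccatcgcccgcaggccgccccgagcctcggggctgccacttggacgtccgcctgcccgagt
Pfkfb3 downstream start, chr2:11502041-11502340: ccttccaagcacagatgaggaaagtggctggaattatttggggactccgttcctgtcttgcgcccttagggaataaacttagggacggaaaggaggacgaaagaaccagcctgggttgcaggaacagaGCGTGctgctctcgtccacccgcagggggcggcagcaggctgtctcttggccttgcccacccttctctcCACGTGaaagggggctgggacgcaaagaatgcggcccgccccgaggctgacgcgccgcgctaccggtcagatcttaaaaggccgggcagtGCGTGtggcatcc
The downstream window held 2 matches to GCGTG and 2 to ACGTG, and the latter overlapped as 1 CACGTG. The upstream window held 1 match to ACGTG and none to the other motifs. Among the 32851 promoter windows of the same length, 19.6% held ACGTG, 32.4% held GCGTG and 7.15% held CACGTG. Of the 17 windows of the 8 genes, 6, 9 and 3 held them. These are letter matches and say nothing of binding.

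Alternative splicing near the 3′ end of Pfkfb3 gives proteins with different carboxyl termini. Pfkfb3-214 includes a coding cassette exon of 87 bases that Pfkfb3-206 and Pfkfb3-220 skip. Its sequence on the gene's strand is shown because it is the difference between the transcripts Pfkfb3-206 and Pfkfb3-214, whose counts are given with the transcript results.
Pfkfb3-214 cassette exon, chr2:11481247-11481333: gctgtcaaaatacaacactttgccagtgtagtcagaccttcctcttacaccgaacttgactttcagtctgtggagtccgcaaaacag

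Pfkp (ENSMUSG00000021196.14, chr13:6579768-6648777, minus strand) has a pair of coding exons of 153 bases that exclude each other. Pfkp-207 carries the first of them and Pfkp-201 the other. Of the 153 positions, 63 differed between the exons and 58.8% were identical, and the differing positions are in capitals.
Pfkp-207 exon, chr13:6597859-6598011: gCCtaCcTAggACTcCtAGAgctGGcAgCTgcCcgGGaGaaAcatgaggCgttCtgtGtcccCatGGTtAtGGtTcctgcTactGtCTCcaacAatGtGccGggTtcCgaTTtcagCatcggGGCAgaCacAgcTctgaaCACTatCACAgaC
Pfkp-201 exon, chr13:6593101-6593253: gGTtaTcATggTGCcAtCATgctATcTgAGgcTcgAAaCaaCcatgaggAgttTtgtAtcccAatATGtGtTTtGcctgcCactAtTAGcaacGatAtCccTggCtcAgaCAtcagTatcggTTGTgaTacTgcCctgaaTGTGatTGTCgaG
Each transcript has a coding length of 2352 bases. These exons are shown because the counts of the transcripts that carry them divided between samples in a way that did not follow the groups. The transcripts also differ at the 3′ end (chr13:6579768 for Pfkp-207, chr13:6581182 for Pfkp-201) and in length (4145 and 2679 bases). Transcript counts alone cannot assign the division to the exons.

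To compare levels between genes, FPKM were used, which scale the fragments of a gene to a length and to the sample's total. For these genes that length largely followed the total of all annotated exons, retained introns included. Over the 6 samples, the liver-type and platelet-type subunits stood highest, with Pfkl at 33.9 ± 3.05 FPKM and Pfkp at 30.0 ± 1.78 FPKM (mean ± SD, n = 6). Tigar (9.81 ± 0.343), Pfkfb3 (7.97 ± 2.42) and Pfkm (6.92 ± 0.993) formed a middle group. Pfkfb1 (0.941 ± 0.148), Pfkfb4 (0.905 ± 0.0834) and Pfkfb2 (0.50 ± 0.0775) were lowest. CPM per kilobase of all annotated exons gave the same ranks. The FPKM largely follow the same lengths, so this is no separate check.

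**Figure D1:**
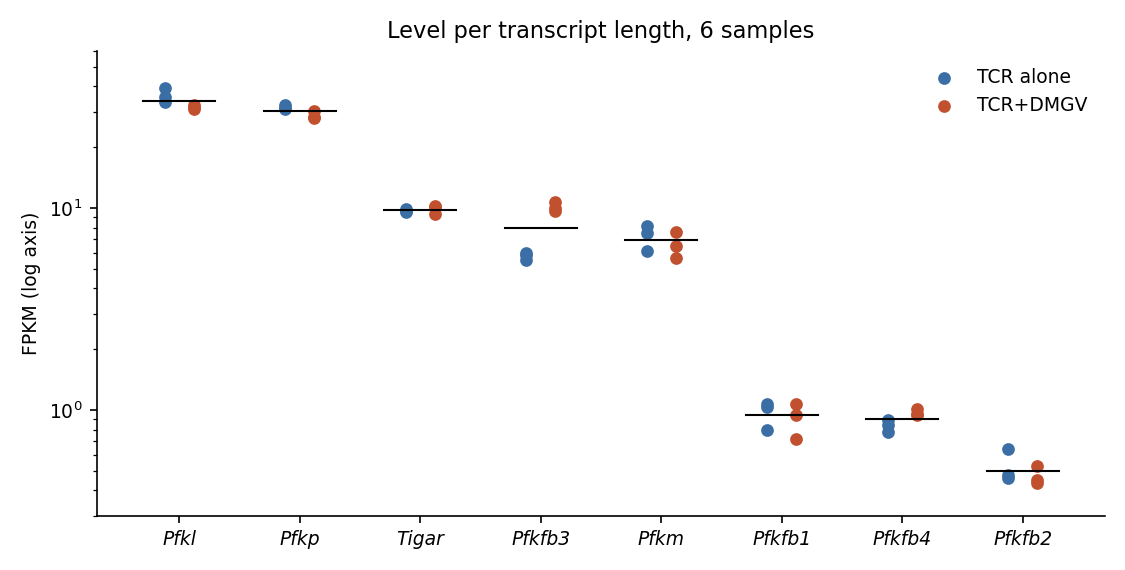
FPKM (log axis) of the 8 genes in each sample, with a line at the 6-sample mean. Pfkl and Pfkp lie above the other genes, Pfkfb3 is the gene whose groups sit farthest apart, and Pfkfb1, Pfkfb4 and Pfkfb2 lie at the bottom.

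Most pairs of genes kept their order from sample to sample. Of the 28 pairs of genes, 25 had the same order of log2(FPKM + 0.1) in all 6 samples, each with an adjusted p of 0.035 over the 28 pairs (two-sided exact sign-flip permutation test, unadjusted p = 0.031, the smallest that 6 samples can give). In FPKM, Pfkl exceeded Pfkp in 6 of 6 samples, by 0.17 ± 0.11 on the log2 scale. That order rests on the exon lengths, 6675 bases for Pfkl and 13401 for Pfkp. Pfkp had more CPM than Pfkl in every sample. The leading transcripts Pfkl-201 and Pfkp-207 are 3730 and 4145 bases long. The widest step between neighbours in the order, 2.75 ± 0.28, separated Pfkm from Pfkfb1. The remaining 3 pairs did not keep the same order in all 6 samples. Where Pfkfb3 is in the pair, the spread and the p-value include the group difference by which that gene was chosen.

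Pfkfb3 was involved in 2 of these 3 pairs. In FPKM, Tigar exceeded Pfkfb3 by 0.35 ± 0.43 on the log2 scale, in 5 of 6 samples (adjusted p = 0.168, exact sign-flip permutation test). In CPM, Pfkfb3 exceeded Tigar and Pfkm in every sample, so the order of these pairs rests on the lengths in FPKM. On the FPKM scale, Pfkfb3 and Pfkm changed places between the groups. Pfkm was the higher of the pair in the 3 samples of TCR alone and Pfkfb3 in the 3 samples of TCR+DMGV, with a difference over all samples of 0.16 ± 0.56 (adjusted p = 0.551 by the same exact test). Pfkfb1 and Pfkfb4 differed by 0.042 ± 0.30 (adjusted p = 0.812 by the same exact test).

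Pfkfb3, the activator-making enzyme, was higher in every sample of TCR+DMGV than in any sample of TCR alone. Its level was 46.8, 51.0 and 49.5 CPM in TCR alone replicates 1, 2 and 3, and 83.5, 92.9 and 84.5 CPM in TCR+DMGV replicates 1, 2 and 3. The groups did not overlap, and the gap between them was wider than the range within either. The means were 49.1 ± 2.12 and 86.9 ± 5.15 CPM (SD, n = 3 each), a log2 difference of 0.82 (SE 0.085) or 1.77-fold in the edgeR fit. Without the samples that stood apart on the first component, TCR alone replicate 3 and TCR+DMGV replicate 1, the log2 difference was 0.86. In these bulk samples, a change in the number of cells of a type and a change in RNA per cell cannot be told apart.

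The size of the Pfkfb3 difference can be read against all genes. Of 9083 genes with a mean log2 CPM above 3, 12 had a larger difference in the same direction and 33 a larger difference in either direction, and the median absolute difference was 0.082. Over the whole table, edgeR's quasi-likelihood test called 2 of 14786 genes at an adjusted p of 0.05 (0.0135%), and 0 of the 8 genes were among them. With DESeq2, 14 genes passed (0.072%), and Pfkfb3 was 1 of them. At an unadjusted p under 0.05 edgeR called 471 genes (3.19%), and 1 of the 8, Pfkfb3. Since this difference chose the gene, its calls are given as counts and no more.

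**Figure D2:**
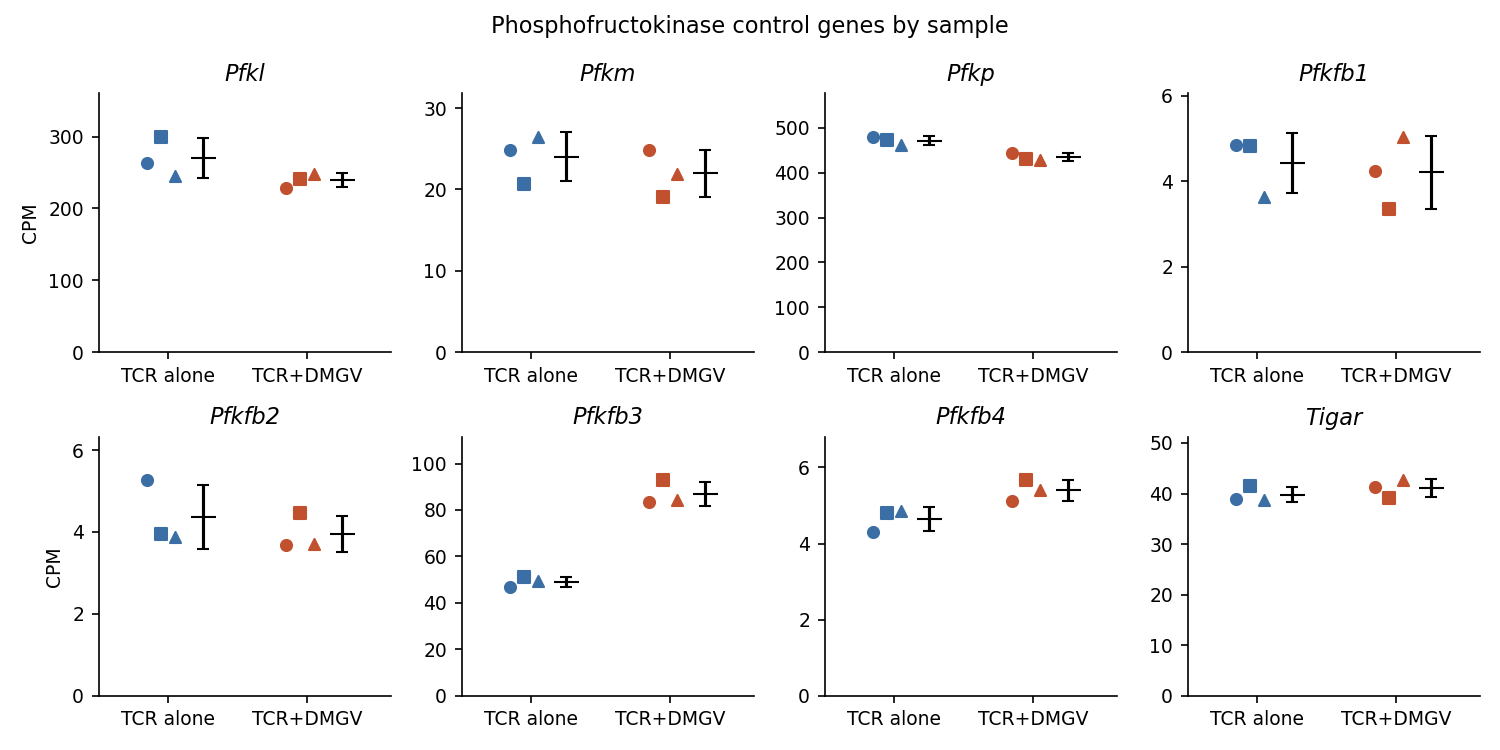
CPM of each gene by sample, with its own linear axis from 0, where circles, squares and triangles are replicates 1, 2 and 3 and the bar is the mean ± SD of 3 samples. The groups do not overlap for Pfkfb3 (46.8 to 51.0 against 83.5 to 92.9 CPM), Pfkfb4 and Pfkp, and they overlap for the other 5 genes.

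Among the other PFKFB genes, Pfkfb4 was the nearest to Pfkfb3 in direction. Pfkfb4 encodes an isoform known from testis and from cells in low oxygen (chr9:108991778-109032228, plus strand). It measured 4.29, 4.80 and 4.86 CPM in TCR alone against 5.12, 5.67 and 5.40 CPM in TCR+DMGV. The groups did not overlap, but they lay close together, at 4.65 ± 0.312 and 5.40 ± 0.272 CPM. The log2 difference of 0.21 had an SE of 0.15.

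Pfkfb1, the liver and muscle isoform (chrX:150588229-150643878, plus strand), overlapped between groups. Its levels were 4.84, 4.83 and 3.62 CPM in TCR alone against 4.25, 3.34 and 5.05 CPM in TCR+DMGV, a log2 difference of -0.073 (SE 0.22). Its lowest and highest samples were both in TCR+DMGV. Pfkfb2, the heart isoform (chr1:130689182-130729253, minus strand), was at 5.27, 3.95 and 3.87 CPM in TCR alone against 3.68, 4.46 and 3.71 CPM in TCR+DMGV, a log2 difference of -0.14 (SE 0.20). Here TCR alone replicate 1 was the high sample and the other 5 lay together. Both genes had counts of 144 to 200 per sample, so their precision was lower than that of Pfkfb3, which had 1778 to 3999 counts.

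Because Pfkfb3 dominated the family, the summed level of the PFKFB genes followed it. The sum was 8.04, 8.21 and 8.12 FPKM in TCR alone against 12.4, 13.0 and 12.2 FPKM in TCR+DMGV (8.12 ± 0.0863 against 12.5 ± 0.446). Pfkfb3 made up 69.0%, 71.5% and 73.3% of that sum in TCR alone against 81.0%, 82.6% and 79.8% in TCR+DMGV. The other 3 genes had smaller shares in TCR+DMGV as a matter of arithmetic. The share of Pfkfb4 was 10.3 ± 0.623% and 7.76 ± 0.0975%, although its own level was not lower.

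The phosphofructokinase 1 subunits lay slightly lower in TCR+DMGV. Pfkp, the platelet-type subunit, was at 480, 472 and 461 CPM in TCR alone against 444, 430 and 428 CPM in TCR+DMGV. The groups did not overlap, at 471 ± 9.58 and 434 ± 8.79 CPM, and the log2 difference was -0.12 (SE 0.062). Pfkl, the liver-type subunit (chr10:77986947-78010083, minus strand), was at 264, 300.0 and 246 CPM in TCR alone against 228, 241 and 248 CPM in TCR+DMGV. Its groups overlapped, since TCR+DMGV replicate 3 exceeded TCR alone replicate 3, and the log2 difference was -0.17 (SE 0.091). Pfkm, the muscle-type subunit (chr15:98092589-98132451, plus strand), overlapped more widely, at 24.9, 20.7 and 26.5 CPM against 24.9, 19.1 and 22.0 CPM, with a log2 difference of -0.13 (SE 0.14).

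Summed over the subunits, the level was 75.2, 76.1 and 73.1 FPKM in TCR alone against 68.7, 65.4 and 66.5 FPKM in TCR+DMGV (74.8 ± 1.53 against 66.9 ± 1.69). The makeup of that sum hardly moved between samples. Pfkl held 45.2% to 51.6% of it, Pfkp 40.4% to 43.7% and Pfkm 8.01% to 11.2%. These are shares of FPKM, and which subunit leads rests on the exon lengths in FPKM. The subunit sum thus lay lower in TCR+DMGV while the PFKFB sum lay higher, and neither pair of groups overlapped.

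Tigar, the phosphatase that opposes PFKFB3 (chr6:127085116-127109557, minus strand), lay close together in all samples. It was at 39.0, 41.6 and 38.8 CPM in TCR alone against 41.3, 39.1 and 42.6 CPM in TCR+DMGV, a log2 difference of 0.045 (SE 0.086). The samples of the groups were interleaved. The FPKM of Pfkfb3 divided by that of Tigar was 0.58, 0.592 and 0.616 in TCR alone against 0.977, 1.15 and 0.957 in TCR+DMGV. The ratio was therefore lower in each sample of TCR alone than in each sample of TCR+DMGV. Its size relative to 1 rests on the exon lengths in FPKM, 7561 bases for Pfkfb3 and 3658 for Tigar. In CPM, Pfkfb3 exceeded Tigar in every sample.

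Taken over the 8 genes, all of which passed the filter on low counts, 3 were higher and 5 lower in TCR+DMGV, with a median log2 difference of -0.10. Over all genes tested the median was 0.0024 and 50.6% were higher. The groups were without overlap in CPM for 3 of the 8 genes, Pfkfb3 and Pfkfb4 upward and Pfkp downward, against 8.86% of all genes (4.92% upward and 3.94% downward). Several of the 8 genes overlap a gene on the other strand, and whether the counting used strand is not given in the sources used here. Senp1 overlaps Pfkm and had 6315 to 8097 counts, Pitrm1 overlaps Pfkp with 10237 to 12685, Apex2 overlaps Pfkfb1 with 573 to 1118, and Yod1 overlaps Pfkfb2 with 265 to 429. The antisense gene Gm10851 within Pfkfb3 had at most 12 counts, and Platr31 at Tigar at most 9.

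The transcript table divides the reads of Pfkfb3 among 21 transcripts, of which 12 had a count. Each count is an assignment made by the authors' software, and transcripts that share most exons compete for the same reads. The transcript with most counts differed between samples. It was Pfkfb3-219, an RNA with a retained intron and no annotated protein, in TCR alone replicates 1 and 2, and Pfkfb3-214 in TCR alone replicate 3. In TCR+DMGV it was Pfkfb3-206 in replicates 1 and 3 and Pfkfb3-220 in replicate 2.

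**Figure D3:**
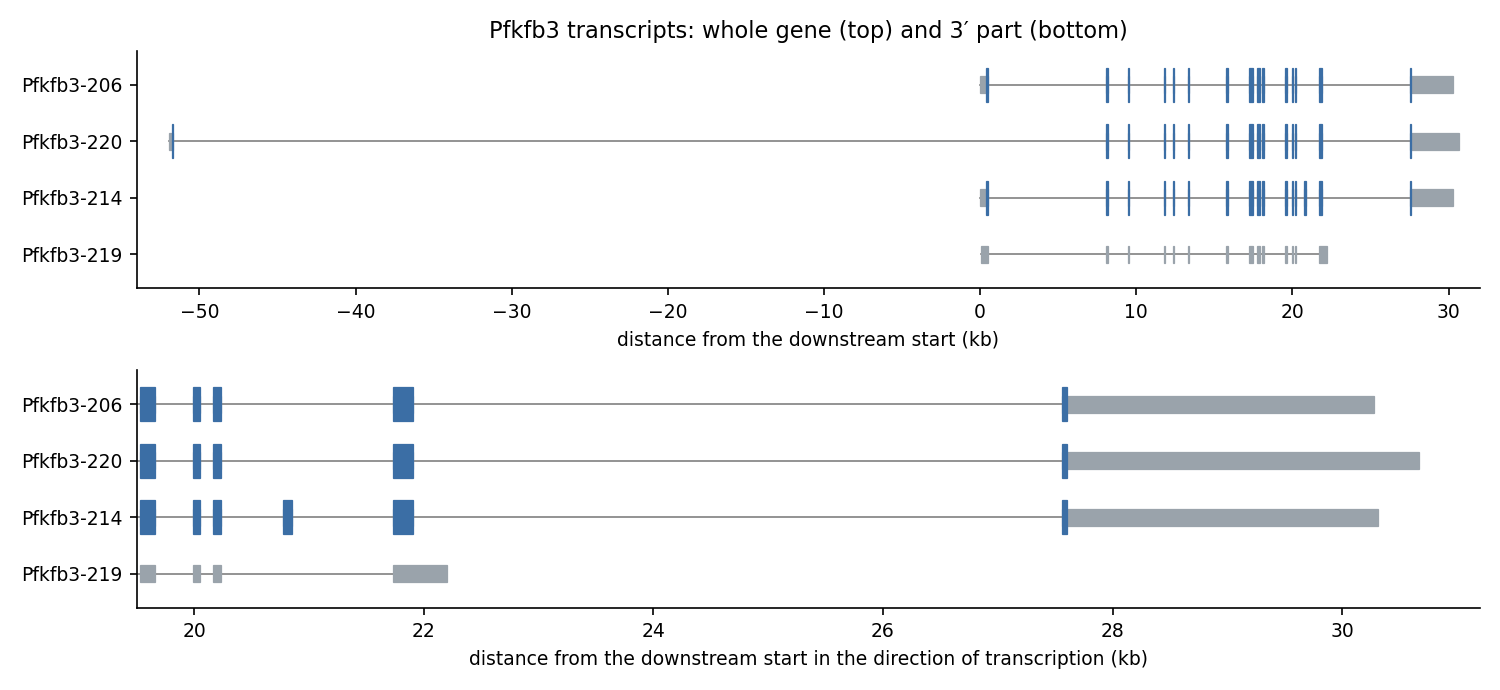
Exons of the 4 Pfkfb3 transcripts with most counts, placed by distance in kb from the downstream start in the direction of transcription, for the whole gene (top) and its 3′ portion (bottom). Tall blue boxes are coding and low gray boxes are not. Pfkfb3-220 begins 51.8 kb upstream, Pfkfb3-214 alone has the cassette exon, and Pfkfb3-219 stops before the long final exon.

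Pfkfb3-206 starts downstream, skips the cassette exon and encodes 1560 coding bases. It received 363, 556 and 388 counts in TCR alone against 2828, 492 and 2331 counts in TCR+DMGV. Replicate 2 of TCR+DMGV was low for this transcript, although its Pfkfb3 total was the highest of all samples. In that sample Pfkfb3-220, which starts upstream, had 1733 counts, against 208 and 330 in replicates 1 and 3 of TCR+DMGV and 293, 335 and 459 in TCR alone. Pfkfb3-214, with the cassette exon, showed the same sample as high, at 917 counts against 217 and 229 in the other samples of TCR+DMGV and 423, 460 and 566 in TCR alone. The share of Pfkfb3-206 thus ran from 12.3% to 76.1% over the samples and averaged 37.4%.

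Grouping the transcripts by their ends was steadier than following each one. These groupings were chosen after the values were seen. The 6 transcripts that end in the long final exon held 1094, 1441 and 1434 counts in TCR alone against 3253, 3183 and 2917 counts in TCR+DMGV. Scaled to depth, they were at 32.9 ± 3.58 and 73.5 ± 0.422 CPM (SD, n = 3 each), 2.23-fold apart and without overlap. The 15 transcripts with other 3′ ends were at 16.2 ± 1.64 and 13.4 ± 4.8 CPM, and these groups overlapped. The long final exon therefore took 61.5%, 69.2% and 70.0% of the Pfkfb3 counts in TCR alone against 87.5%, 79.6% and 87.2% in TCR+DMGV.

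Transcripts with a retained intron took 30.3 ± 4.57% of the Pfkfb3 counts in TCR alone against 13.6 ± 4.88% in TCR+DMGV. Pfkfb3-219 itself had 625, 590 and 548 counts in TCR alone against 401, 758 and 352 in TCR+DMGV, so that its counts overlapped between the groups while its share of a larger total was smaller. Hence the higher Pfkfb3 total in TCR+DMGV lay in the transcripts that end in the long final exon, as far as the assignment of reads can be trusted.

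The choice of start was less steady. The 14 transcripts of the downstream start held 38.6, 40.5 and 37.9 CPM in TCR alone against 78.7, 51.4 and 75.4 CPM in TCR+DMGV, without overlap. The 2 transcripts of the upstream start held 8.11, 10.4 and 11.5 CPM in TCR alone against 4.67, 41.2 and 9.01 CPM in TCR+DMGV. Replicate 2 of TCR+DMGV alone stood above the others for the upstream start. Transcripts with the cassette exon took 23.8%, 22.2% and 27.6% of the counts in TCR alone against 5.84%, 23.0% and 6.99% in TCR+DMGV, again with replicate 2 apart from its group.

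**Figure D4:**
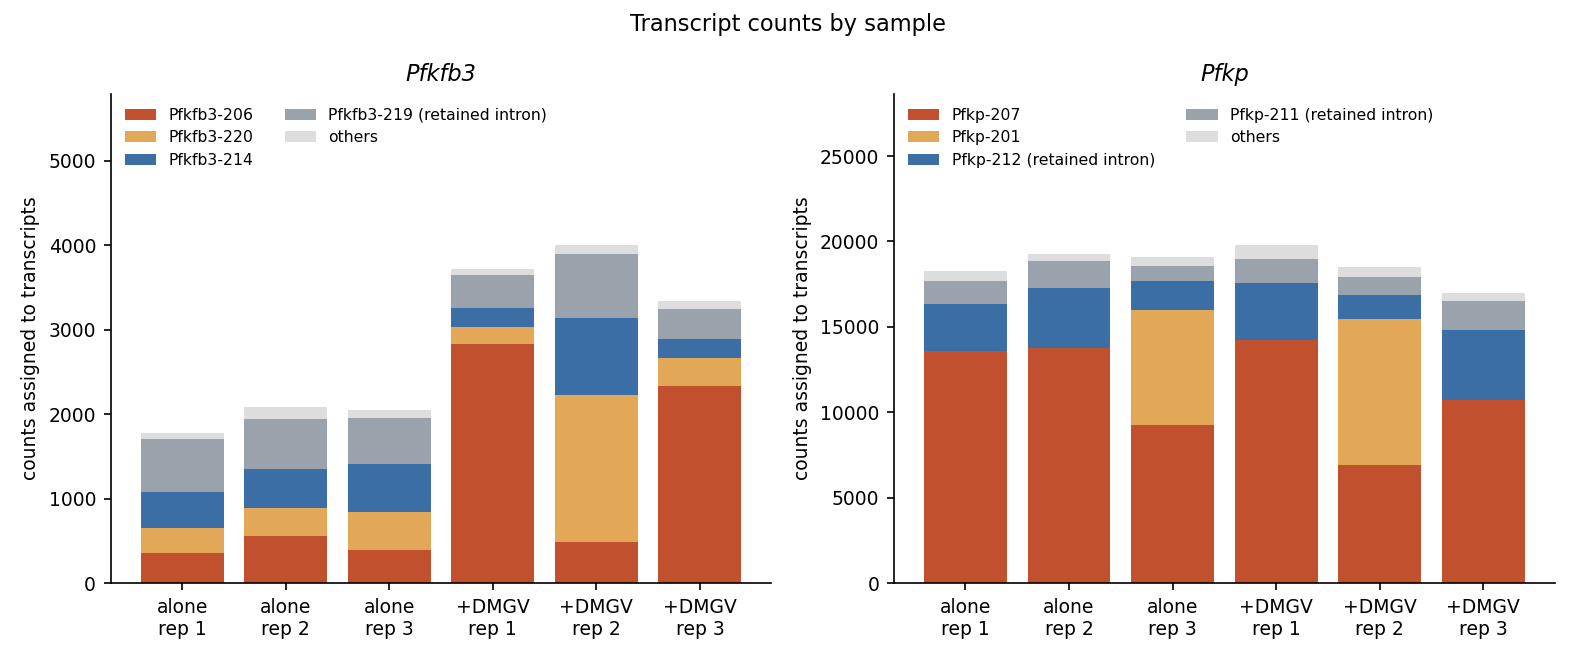
Counts assigned to the transcripts of Pfkfb3 (left) and Pfkp (right), stacked by sample. In Pfkfb3 the TCR+DMGV bars are taller, with Pfkfb3-206 (2828 and 2331 counts) largest in replicates 1 and 3 and Pfkfb3-220 (1733 counts) largest in replicate 2, and in Pfkp the transcript Pfkp-201 is visible in TCR alone replicate 3 (6783 counts) and TCR+DMGV replicate 2 (8550 counts).

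Pfkp showed a division between samples that cut across the groups. Pfkp-207 had 13585, 13781 and 9234 counts in TCR alone against 14238, 6915 and 10697 counts in TCR+DMGV. Pfkp-201, with the other of the mutually exclusive exons printed above, had 4, 8 and 6783 counts in TCR alone against 14, 8550 and 0 counts in TCR+DMGV. In TCR alone replicate 3 and TCR+DMGV replicate 2, Pfkp-201 took 42.3% and 55.3% of the counts of the pair, and in the other 4 samples under 0.1%. The gene total did not differ accordingly, at 461 and 430 CPM in these samples within the 428 to 480 CPM of all 6. Transcripts of Pfkp with a retained intron, mainly Pfkp-212 and Pfkp-211, took 23.1 ± 6.39% of its counts in TCR alone against 26.9 ± 10.3% in TCR+DMGV. The cause of the division was not tested, and the 4 and 8 counts beside 6783 in 1 group leave the level of each Pfkp transcript unsettled.

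The remaining genes with high counts used 1 transcript almost alone. Pfkl-201 took 97.9% to 99.2% of the Pfkl counts, Tigar-201 took 99.9% to 100.0% of the Tigar counts, and Pfkm-201 took 82.9% to 99.8% of the Pfkm counts. The low PFKFB genes were less settled. Pfkfb1-201 led in all 6 samples with 43.7% to 62.5%. Pfkfb4-203 led in 5 samples and ran from 36.8% to 98.4%, with Pfkfb4-207, annotated for nonsense-mediated decay, at 120 counts in TCR alone replicate 3 and 0 in the other samples. Pfkfb2 had 3 different leading transcripts. Pfkfb2-203 had 159, 65 and 107 counts in TCR alone against 16, 0 and 54 in TCR+DMGV.

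Around the 8 genes, none of the other genes of sugar metabolism that were listed was called at an adjusted p of 0.05 by edgeR's quasi-likelihood test or by DESeq2. The 22 genes of glucose uptake and glycolysis were all tested, and 5 were higher and 17 lower in TCR+DMGV, with a median log2 difference of -0.055. Their differences ran from -1.03 for Hk3, a hexokinase at 0.351 and 0.171 CPM, to 0.22 for Bpgm. Bpgm, which makes 2,3-bisphosphoglycerate from a glycolytic intermediate, was at 20.1 ± 1.08 CPM in TCR alone against 23.4 ± 1.51 CPM in TCR+DMGV. Gpi1, which supplies fructose-6-phosphate to phosphofructokinase 1, was at 577 ± 31.7 and 521 ± 12.2 CPM, a log2 difference of -0.15 (SE 0.070). The groups did not overlap for 4 of the 22 genes, against 8.86% of all genes tested. Of all genes tested, 50.6% were higher. Without TCR alone replicate 3 and TCR+DMGV replicate 1, 10 genes were higher and 11 lower of 21 tested, with a median of -0.0026. With all 6 samples, none reached an unadjusted p of 0.05.

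The opposite step had no measured enzyme, since Fbp1 and Fbp2, the fructose-1,6-bisphosphatases of gluconeogenesis, had 0 counts in all 6 samples. The pentose phosphate pathway, to which TIGAR directs sugar, had 4 genes higher and 4 lower of 8 tested, with a median log2 difference of 0.0036. Pgls, a lactonase of that pathway, had a log2 difference of 0.30 (SE 0.27) and Rpe, an epimerase, -0.16 (SE 0.18). Pgls was high in 1 sample, TCR+DMGV replicate 2, at 70.7 CPM, and at 34.6 to 42.4 CPM in the others. Without TCR alone replicate 3 and TCR+DMGV replicate 1, 6 genes of this pathway were higher and 2 lower, with a median of 0.059. Neither gene's difference exceeded its error by much, the groups overlapped for all 8 genes, and none reached an unadjusted p of 0.05.

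Known regulators of PFKFB3, phosphofructokinase 1 or TIGAR were divided as well. Of 17 listed, 16 were tested, with 9 higher and 7 lower and a median log2 difference of 0.014. Among them, 1 was higher at an unadjusted p under 0.05 in edgeR's quasi-likelihood test, against 3.19% of all genes tested in either direction. Prkab1, a subunit of the AMP-activated kinase that phosphorylates PFKFB enzymes, was at 36.2 ± 1.78 CPM in TCR alone against 42.1 ± 1.6 CPM in TCR+DMGV, without overlap, a log2 difference of 0.22 (SE 0.088). Mlx, the partner of the carbohydrate response factors that bind E-boxes, had a log2 difference of 0.28 (SE 0.13), with groups that overlapped.

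Targets of hypoxia-inducible factors outside glycolysis mostly had negative log2 differences. Pfkfb3 is itself a known target, and its relation to this list was not tested. Of 18 listed, 17 were tested, with 2 higher and 15 lower and a median log2 difference of -0.14. Among them, 1 was lower at an unadjusted p under 0.05 in edgeR's quasi-likelihood test, and 2 had no overlap. Over all genes tested, 50.6% were higher, 3.19% had an unadjusted p under 0.05 in that test, and 8.86% did not overlap. Bnip3, a mitophagy receptor, was at 28.8 ± 6.98 CPM in TCR alone against 20.4 ± 2.46 CPM in TCR+DMGV, a log2 difference of -0.49 (SE 0.19). Egln1, the oxygen sensor that marks the factors for breakdown, was at 117 ± 10.2 and 102 ± 5.06 CPM, a log2 difference of -0.20 (SE 0.090). TCR alone replicate 3 and TCR+DMGV replicate 1, which stood apart on the first component, were the lowest samples of their groups for Bnip3, at 21.5 CPM (against 35.4 and 29.5) and 17.7 CPM (against up to 22.6). Without both, 2 of the 17 genes were higher and 15 lower, with a median of -0.20 and -0.57 for Bnip3. The adjusted p of each listed gene named here was 0.999 in edgeR's quasi-likelihood test.

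**Figure D5:**
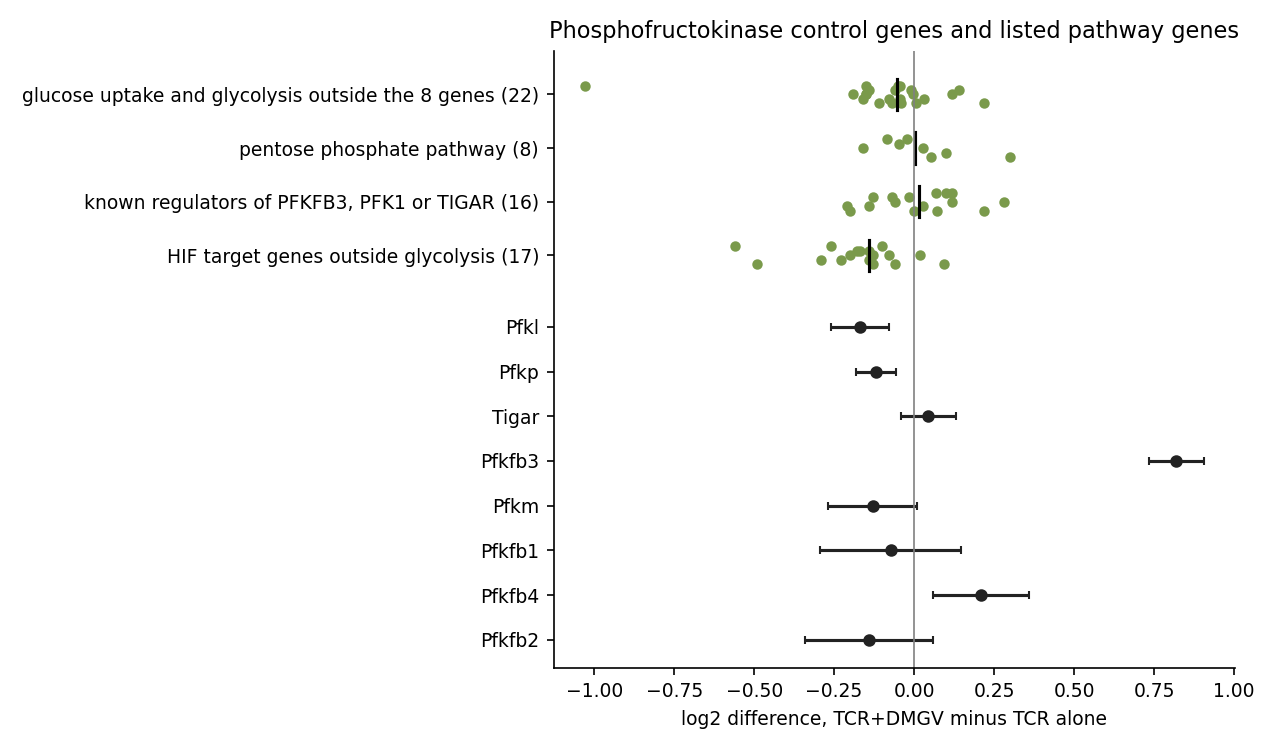
Log2 differences, TCR+DMGV minus TCR alone, for the tested genes of each of the 4 pathway lists (green points, black line at the median, number of genes in parentheses) and for the 8 genes with their SE (black). Pfkfb3 at 0.82 lies to the right of every gene of these pathway lists, and their medians lie between -0.14 and 0.014.

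The genes whose pattern over the 6 samples was most like that of Pfkfb3 are given as a description. Likeness was the root mean square difference between log2 CPM centered on the 6-sample mean, over 9042 genes. The Pfkfb3 pattern is mostly the group difference by which it was chosen. The ranking therefore mainly lists genes with a similar log2 difference, such as 0.94 for Ahcyl2 and 0.71 for Trp53i11. Genes with little difference between the groups rank low as a matter of arithmetic, and nothing is read from their ranks. Ahcyl2, a relative of the enzyme that hydrolyzes S-adenosylhomocysteine, was nearest at 0.093. Trp53i11, a p53-inducible gene, followed at 0.12, and 5031439G07Rik, Pcmtd2 and the heme exporter Flvcr1 at 0.18, 0.19 and 0.21. The ranking took genes with a mean log2 CPM above 3, which left Tigar at 0.40 (rank 2643) and Pfkp, Pfkl and Pfkm at 0.48 to 0.52 (ranks 6607 to 7598). Of the 3 genes below that limit, Pfkfb4 was nearer to Pfkfb3 than Tigar was, at 0.31, and Pfkfb2 and Pfkfb1 lay at 0.51 and 0.52.

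Markers of other cells in the spleen were set beside these values. Summed B cell markers were at 247 to 273 CPM in TCR alone against 247 to 258 CPM in TCR+DMGV. Myeloid markers were at 9.07 to 12.8 and 9.21 to 11.4 CPM with Cd14 at 0, NK markers at 76.4 to 85.3 and 80.7 to 89.4 CPM, and dendritic cell markers at 7.23 to 9.74 and 7.87 to 9.80 CPM with Siglech and Clec9a at 0. Erythroid markers were at 3.72 to 4.93 and 1.75 to 3.72 CPM. The 16 T cell markers summed to 5030 to 5490 CPM in TCR alone against 5440 to 5730 CPM in TCR+DMGV, ranges that overlapped. In TCR+DMGV, 15 of the 16 were higher, against 50.6% of all genes tested. The part of these markers in the Pfkfb3 difference was not tested. By edgeR's quasi-likelihood test no marker was called at an adjusted p of 0.05, nor by DESeq2. In edgeR's test, 1 T cell marker (higher), 1 B cell marker (lower) and 1 erythroid marker (lower) had an unadjusted p under 0.05. The share of all genes tested under that limit was 3.19%.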

How the data were processed

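RNA from 6 samples of stimulated splenic T cells was sequenced after mRNA selection. Per the labels and methods, the authors filtered reads with SOAPnuke, mapped them with HISAT2 2.0.4 and estimated expression with StringTie. The authors deposited counts for genes and transcripts as whole numbers without normalization, and how StringTie's coverage became counts is not given in the sources used here. The FPKM the authors deposited are scaled to length and sample total. The submitters' notes name mm9, but the tables hold no coordinates, and 99.7% of gene identifiers, without version, match GENCODE M21 (GRCm38), which gave symbols and coordinates. Summed transcript counts equaled the gene count for 99.7% of genes.

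The 8 genes and all lists were chosen with earlier results of these data known. Groups and replicates came from the labels. Where nothing ties samples to animals, p-values measure only the spread between these samples. CPM were counts-per-million of the summed counts of the genes past edgeR's default filter, scaled by the TMM factors (0.979 to 1.03). Log2 differences and their SE came from edgeR 4.0.16 in R 4.3.3 (quasi-likelihood test, TMM, default filter, 14786 of the 22526 genes with a count, two-sided, Benjamini-Hochberg over all genes, threshold 0.05), tested on simulated counts. Alternatives were DESeq2 1.42.0, edgeR with RLE factors or with library size alone, a minimum of 1 CPM in 3 samples or every gene with a count, summed transcript counts, limma 3.58.1 on log2(FPKM + 1) and log2(FPKM + 0.1) of genes with at least 1 FPKM in 3 samples, the replicate number as a block, and each sample left out. Levels were compared with an exact sign-flip permutation test on log2(FPKM + 0.1). An exact test of 3 against 3 samples cannot give a p under 0.1. Named list genes were the 2 of smallest edgeR p in each list, and Hk3 was named after its value was seen. Python 3.11.15, pandas 2.3.3 and matplotlib 3.10.9 were used.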

Additional observations from a re-analysis of the deposited data

How the results depend on the processing

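The number of genes past an adjusted p of 0.05, 2 with edgeR's quasi-likelihood test, was 14 with DESeq2, 1 with library size alone, 1 with every gene that had a count, 0 with limma on log2(FPKM + 1), 0 with limma on log2(FPKM + 0.1) and 0 with the replicate number as a block, where 339, 339 and 340 genes had an unadjusted p under 0.05 in the last 3. With 1 sample left out it ran from 0 to 5, with 0 without any 1 of TCR alone replicates 1, 2 and 3 or TCR+DMGV replicate 2 and 5 without TCR+DMGV replicate 1. It was 12 without both TCR alone replicate 3 and TCR+DMGV replicate 1. No pathway list gene passed in any of the 16 alternatives. The Pfkfb3 difference of 0.82 ran from 0.72, with limma on log2(FPKM + 1), to 0.86, and from 0.77 to 0.85 with 1 sample left out. Pfkp was at -0.15 without TCR alone replicate 3 and TCR+DMGV replicate 1, with a range of -0.15 to -0.11. The small differences of the other genes moved when single samples were left out. Pfkfb2, at -0.14, was at -0.00015 without TCR alone replicate 1 and -0.24 without TCR+DMGV replicate 2. Pfkl, at -0.17, was at -0.094 without TCR alone replicate 2. Pfkm, at -0.13, was at -0.036 without TCR+DMGV replicate 2, -0.046 without TCR alone replicate 3 and -0.23 without TCR alone replicate 2 or TCR+DMGV replicate 1. Pfkfb1, at -0.073, ran from -0.22 without TCR+DMGV replicate 3 to 0.068 without TCR+DMGV replicate 2. Pfkfb4, at 0.21, was at 0.14 without TCR alone replicate 1, and Tigar, at 0.045, ran from 0.014 without TCR alone replicate 1 to 0.078 without TCR+DMGV replicate 2. Pfkfb2 and Pfkfb4 were not in the limma fits. The mean share of Pfkfb3-206 was 30.5% by FPKM and 29.6% to 42.4% with 1 sample left out, and 25 to 26 pairs of genes kept their order. Samples with the same replicate number did not deviate together (correlations of -0.154, 0.121 and -0.148). With 3 samples per group, 1 in each standing apart, this cannot decide whether the numbers mark a shared animal or day. The depth limits Pfkfb1, Pfkfb2 and Pfkfb4 most, at 144 to 244 counts per sample. The cause of these shifts was not tested.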
